A study of Mus musculus with 31 samples.

Results

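Transcript levels of 10 phospholipase C genes were examined in the brains of mice carrying the PLCγ2-P522R knock-in allele, in acutely isolated CD11b+ microglia and in cortex. The 10 genes, Plcg2, Plcg1, Plcb1, Plcb2, Plcb3, Plcb4, Plcd1, Plcd4, Plce1 and Plch2, were chosen by their symbols in the count tables, which list 55401 genes. The rule itself uses no measured value, although the set was put together with earlier results of these data known. All 10 passed the low-count filter in every comparison.

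The mice were 13 months old, on the C57BL/6J background, and either homozygous for the knock-in allele (Pki/ki, KI) or wild-type at Plcg2 (Pwt/wt, WT). A+ mice carried the APPswe/PS1dE9 (APP/PS1) transgene, driven by the mouse prion protein promoter, and A- mice did not. The knock-in allele was made by CRISPR/Cas9 editing and is carried in every cell of a KI mouse, not in microglia alone. The CD11b+ libraries came from 3 male A-/Pwt/wt, 4 male A-/Pki/ki, 7 female A-/Pwt/wt, 4 female A+/Pwt/wt and 4 female A+/Pki/ki mice, whose brain cells were dissociated and pulled down with magnetic beads against CD11b, a surface protein of microglia and other myeloid cells. The cortex libraries came from the temporo-occipital cortex of 1 A-/Pwt/wt, 4 A+/Pwt/wt and 4 A+/Pki/ki females. Values are counts-per-million (CPM) scaled by TMM, a correction for differences in library composition, over all 31 libraries.

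Phospholipase C enzymes cut the membrane lipid PIP2 into IP3, which releases calcium from intracellular stores, and diacylglycerol (DAG), which activates protein kinase C and RasGRP proteins. The isoforms differ in what switches them on: tyrosine kinases downstream of immune and growth factor receptors for the gamma isoforms, Gq and G beta gamma proteins for the beta isoforms, calcium for the delta and eta isoforms, and small GTPases for the epsilon isoform. In the brain PLCγ2 is known as a microglial enzyme downstream of TREM2 and Fc receptors, whereas PLCβ1 is known as a main effector of Gq-coupled receptors in cortical neurons.

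The site of the knock-in is shown first because it defines the groups. Plcg2 (ENSMUSG00000034330) lies on the plus strand at chr8:117498291-117635142 of GRCm38, and the proline that the P522R allele changes to arginine is encoded in exon 17 of the transcript Plcg2-201 at chr8:117589849-117589851. The wild-type reference transcript is given with that codon in capitals and 30 bases of coding sequence on each side, joined across a splice junction. The edited base or bases were not read from these count data.
Plcg2-201 around the knock-in codon: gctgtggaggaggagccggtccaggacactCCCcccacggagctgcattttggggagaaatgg
The promoter windows of Plcg2 and Plcb2 are shown because these were the members with the largest microglia-to-cortex differences. They are the 250 bases upstream of each RefSeq start on GRCm38.p6, chr8:117498025-117498274 on the plus strand for Plcg2 and chr2:118728439-118728688 on the minus strand for Plcb2, each written along the strand of the gene. Capitals mark GGAAGT, a word found in sites bound by ETS factors such as the myeloid factor PU.1. It was searched on both strands, so that a match on the opposite strand reads ACTTCC.
Plcg2 promoter: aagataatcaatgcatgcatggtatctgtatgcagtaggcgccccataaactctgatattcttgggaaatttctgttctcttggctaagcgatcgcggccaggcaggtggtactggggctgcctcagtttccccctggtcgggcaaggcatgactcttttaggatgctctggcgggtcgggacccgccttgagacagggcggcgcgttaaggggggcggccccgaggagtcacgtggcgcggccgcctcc
Plcb2 promoter: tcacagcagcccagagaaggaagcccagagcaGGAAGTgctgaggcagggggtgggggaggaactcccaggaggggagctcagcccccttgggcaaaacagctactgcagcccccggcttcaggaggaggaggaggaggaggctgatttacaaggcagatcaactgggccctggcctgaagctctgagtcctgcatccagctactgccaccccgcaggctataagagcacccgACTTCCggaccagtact
The Plcb2 window held 2 matches, whose bases farthest from the start lay 218 and 17 bases upstream of it, and the Plcg2 window held none. The shorter word GGAA, which occurs in both windows, was not marked. Of 14 promoter windows of the members 2 held GGAAGT, those of Plcb2 and of a second start of Plcd1, as did 6485 of 32851 windows (19.7%) of all genes. The longer PU.1 word GAGGAAGT, which contains GGAAGT, occurred in 1 of the 14, the second Plcd1 start, and in 2.44% of all windows. The matches are positions of letters and not measured binding.

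The other members were identified by symbol and lie at chr2:160731300-160775760 (Plcg1), chr2:134786067-135475258 (Plcb1), chr2:118707517-118728438 (Plcb2), chr19:6952325-6976470 (Plcb3), chr2:135659011-136014593 (Plcb4), chr9:119071527-119093502 (Plcd1), chr1:74542888-74567794 (Plcd4), chr19:38481109-38785030 (Plce1) and chr4:154983115-155056784 (Plch2) of GRCm38. Exons of 5 of the 10 overlap a gene on the opposite strand, namely Plcg1 (379 bp with Zhx3 and 248 bp with Gm27206), Plcb1 (178 bp with 9630028H03Rik), Plcb3 (22 bp with Ppp1r14b), Plch2 (189 bp with Gm10564) and Plcd4 (2101 bp with Zfp142). Plcg2, Plcb2, Plcb4, Plcd1 and Plce1 overlap no annotated exon of another gene.

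Library totals ranged from 16229831 to 25118180 counts in CD11b+ microglia and from 25226544 to 43129427 counts in cortex, and the lowest member count in any library was 24, for Plch2. All 15 microglia markers, among them Csf1r and Ctss, were detected in every CD11b+ library, with a summed level of 19695 to 47072 CPM against 559 to 1267 CPM in cortex. Neuron markers, led by Camk2a, Snap25 and Nrgn, summed to 304 to 7116 CPM in CD11b+ libraries and 17432 to 19642 CPM in cortex, and oligodendrocyte markers, among them Mbp and Mobp, to 7180 to 80066 CPM and 3770 to 6310 CPM. Transcripts of other brain cells were thus present in the CD11b+ preparations, in amounts that differed among libraries. The mouse number 236 appears on a female A-/Pwt/wt CD11b+ library and on a female A+/Pwt/wt cortex library, so 1 of these labels may be wrong, and the comparisons were repeated without each. The batch tags in the column names of the CD11b+ libraries follow sex and transgene (all males, A+ females and A- females each have their own tag), so that neither sex nor transgene can be told apart from the tag.

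Per kilobase of exon, Plcg2 was the highest of the 10 members in every CD11b+ group, and its libraries did not overlap those of the next gene. In A+/Pwt/wt microglia its level was 45.4 ± 5.62 (SD, n = 4) CPM per kb, ahead of Plcb2 at 18.7 ± 2.73, Plcg1 at 14.3 ± 1.49 and Plcb3 at 14.1 ± 0.758. The other members were lower, from Plcd1 at 5.58 ± 0.576 down to Plcd4 at 0.720 ± 0.332 CPM per kb. Plcg2 made up 37.2% to 44.8% of the summed per-kb level of the 10 members in the 5 CD11b+ groups. The length used joins all annotated exons of a gene, 4.298 kb for Plcg2 and 3.093 kb (Plcd1) to 15.998 kb (Plce1) for the others. How far shares and order depend on it was not tested. In plain CPM Plcg2 was also highest in A+/Pwt/wt microglia, at 195 against 123 for Plcb2. In A+/Pwt/wt cortex the order was different: Plcb1 was highest at 19.6 ± 2.24 (SD, n = 4) CPM per kb, followed by Plcg1 at 8.40 ± 0.534 and Plch2 at 8.22 ± 0.678, whose libraries overlapped. Plcg2 stood there at 1.93 ± 0.129 CPM per kb, between Plcb3 and Plcd4, and made up 3.64% of the summed level, against 36.8% for Plcb1.

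**Figure D1:**
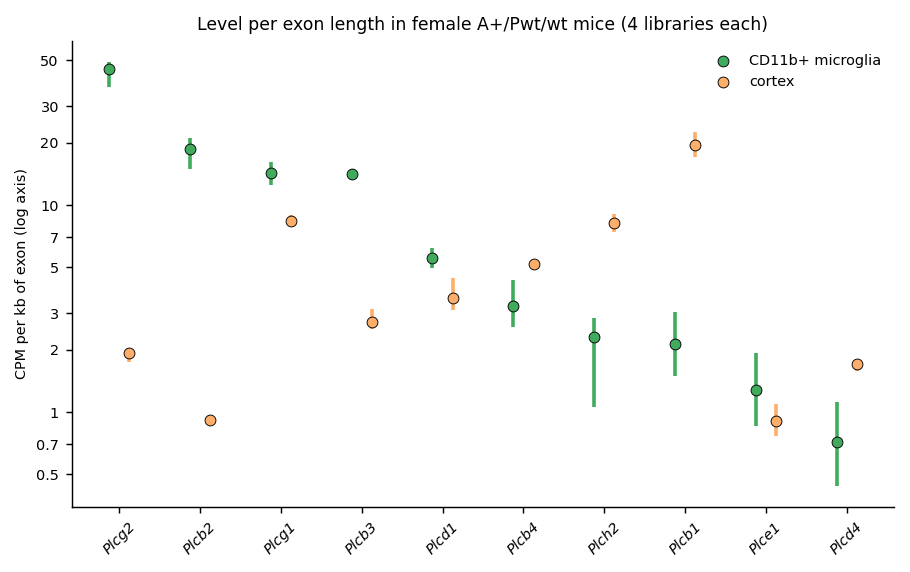
Level of the 10 members in CPM per kilobase of exon (log axis) in A+/Pwt/wt CD11b+ microglia and cortex, shown as the mean and the range of 4 libraries each. Plcg2 leads in microglia at 45.4 CPM per kb and Plcb1 leads in cortex at 19.6 CPM per kb.

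Across the groups, Plcg2 was ordered from male WT microglia at 239.7 ± 2.03 CPM through A+/Pki/ki at 215 ± 47.2, A+/Pwt/wt at 195 ± 24.2, male KI at 192 ± 29.6 and female A-/Pwt/wt microglia at 187 ± 36.9 to A+/Pwt/wt cortex at 8.29 ± 0.554 and A+/Pki/ki cortex at 7.87 ± 0.689 CPM (SD). All neighbours in this order overlapped except the lowest microglia and the highest cortex group. Plcb2 had the same highest group, at 187 ± 12.8 CPM, which did not overlap the next, male KI at 135 ± 21.8 CPM, and the female microglia groups lay between 122 and 132 CPM. Plcg1 likewise ran from 155 ± 2.77 CPM in male WT, without overlap with male KI at 144 ± 7.43, to 112 ± 11.7 CPM in A+/Pwt/wt microglia and 64.2 ± 6.55 CPM in A+/Pki/ki cortex.

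Plcb3 averaged 98.0 to 134 CPM and Plcd1 17.3 to 24.7 CPM over the microglia groups, with male WT highest for both. The members with low microglial levels were ordered otherwise. Plch2 was lowest in male WT microglia, at 2.702 ± 0.537 CPM, and highest, at 21.2 ± 16.5 CPM, in female A-/Pwt/wt microglia, a group whose own libraries spread from 7.54 to 52.3 CPM. Plcb1, Plcd4, Plcb4 and Plce1 had their highest microglia mean in male KI, at 25.4 ± 8.14, 6.73 ± 1.25, 33.1 ± 9.48 and 27.0 ± 9.42 CPM, and their lowest in male WT or A+/Pki/ki microglia. Groups of different sex, transgene and batch tag were not tested against each other beyond the comparisons that follow.

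The first comparison asked how the members divided between isolated microglia and cortex, and it was made within each A+ genotype. Microglia and cortex libraries differed in brain region, preparation and RNA kit as well as in cell content, and these cannot be told apart. In A+/Pwt/wt mice all 10 members passed the test (edgeR quasi-likelihood, Benjamini-Hochberg false discovery rate, FDR, of 0.05), 6 higher and 4 lower in microglia, where 77.9% of 18541 genes did, 37.7% higher and 40.2% lower. In A+/Pki/ki mice 9 members passed, 5 higher and 4 lower, against 76.6% of 18954 genes (36.8% higher, 39.8% lower). With a background this high, the count of members says little, and their sizes and order are what the comparison gives. Without the cortex library of mouse 236 the other members kept their calls and Plce1 did not, and the log2 difference of Plcg2 was 4.65. In bulk RNA a lower share of a cell type and less RNA per cell cannot be told apart.

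Plcg2, the immune-receptor isoform, had 160.0, 211, 198 and 211 CPM in the 4 A+/Pwt/wt microglia libraries and 8.60, 8.42, 8.68 and 7.48 CPM in the 4 cortex libraries. Every microglia library was far above every cortex library. The log2 difference was 4.65 ± 0.14 (SE), a 25.1-fold higher level (FDR = 2.56e-09), and in A+/Pki/ki mice it was 4.89 ± 0.20 (FDR = 4.47e-07). Plcg1, the broadly used growth factor receptor isoform, differed by much less: it was 126, 116, 98.3 and 109 CPM in microglia and 69.0, 62.2, 62.5 and 70.2 CPM in cortex, a log2 difference of 0.86 ± 0.09 (FDR = 8.89e-06).

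Among the beta isoforms, Plcb2, which is known from blood cells and taste cells, came close to Plcg2. Its levels were 98.8, 135, 121 and 138 CPM in A+/Pwt/wt microglia and 5.85, 6.36, 5.70 and 6.29 CPM in cortex, without overlap, for a log2 difference of 4.44 ± 0.15 (FDR = 2.75e-09). Plcb3, a widely expressed Gq and G beta gamma effector, was also higher in microglia, at 91.9, 99.6, 96.0 and 104 CPM against 18.8, 21.8, 17.6 and 17.5 CPM, a log2 difference of 2.46 ± 0.11 (FDR = 1.21e-08). The neuronal isoform Plcb1 went the other way, and its 216, 189, 215 and 250.1 CPM in cortex lay far above its 33.7, 18.8, 25.7 and 16.6 CPM in microglia (log2 difference -3.12 ± 0.20, FDR = 1.17e-07). Plcb4, a Gq effector known from the retina and cerebellum, was lower in microglia as well, at 38.8, 23.1, 29.4 and 25.9 CPM against 46.0, 44.5, 48.6 and 48.1 CPM (log2 difference -0.59 ± 0.14, FDR = 0.00221). In A+/Pki/ki mice the log2 differences were 4.68 ± 0.20 for Plcb2, 2.39 ± 0.13 for Plcb3, -3.79 ± 0.45 for Plcb1 and -1.10 ± 0.29 for Plcb4, each past the threshold.

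Of the calcium-sensitive and GTPase-linked members, Plcd1 was higher in microglia, with a log2 difference of 0.74 ± 0.14 in A+/Pwt/wt and 0.67 ± 0.11 in A+/Pki/ki mice. Plcd4 was lower, with log2 differences of -1.16 ± 0.26 and -2.05 ± 0.40, and so was the neuron-enriched Plch2, with -1.75 ± 0.26 and -2.87 ± 0.80, again past the threshold in both genotypes. Plcd4 shares 29.8% of its exon bases with Zfp142 on the opposite strand, and the counting did not use strand, so that its reads and those of Zfp142 cannot be fully separated. Plce1, an isoform regulated by small GTPases, was the exception, with 30.96, 13.7, 21.2 and 15.6 CPM in A+/Pwt/wt microglia and 13.4, 12.3, 15.2 and 17.4 CPM in cortex, which overlapped. Its log2 difference of 0.57 ± 0.22 (FDR = 0.037) lost its call in 5 of the 8 fits that left out 1 library (microglia of mice 331 and 375 and cortex of mice 236, 257 and 259, with a lowest value of 0.31 without mouse 331), and in A+/Pki/ki mice the log2 difference was -0.24 ± 0.33 (FDR = 0.518). The 1 A-/Pwt/wt cortex library, which has no replicate, held 4.99 CPM of Plcg2, 3.76 CPM of Plcb2, 270.3 CPM of Plcb1 and 78.5 CPM of Plch2. Both microglial isoforms were below every A+ cortex library there, beside a microglia marker sum of 559 CPM against 1044 to 1267 CPM.

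**Figure D2:**
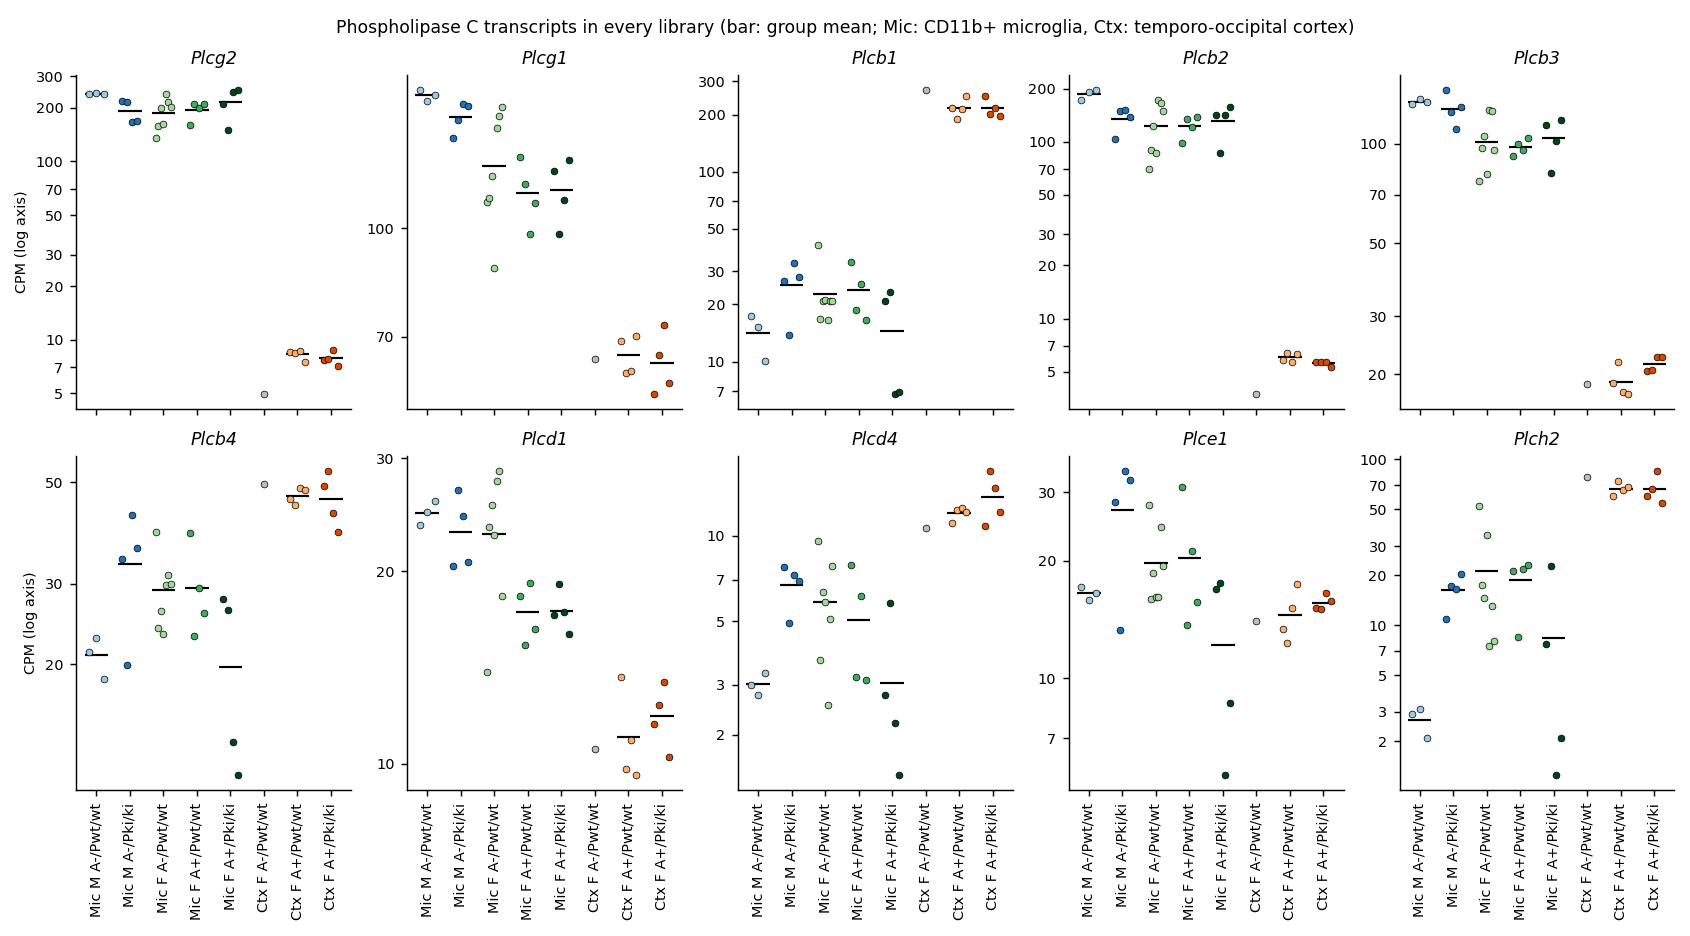
CPM of each member (log axes that differ between panels) in every library of the 5 CD11b+ microglia (Mic) and 3 cortex (Ctx) groups, with a bar at the group mean. Plcg2, Plcb2 and Plcb3 sit far higher in microglia and Plcb1 far higher in cortex, where the lowest Plcb1 library has 189 CPM.

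Counted per 1000 counts of the 15 microglia markers, a scale chosen after the data were seen, most of the difference in Plcg2 between the preparations was gone. It was 5.92, 5.29, 6.48 and 6.68 in A+/Pwt/wt microglia and 7.12, 6.98, 8.31 and 7.01 in A+/Pwt/wt cortex, so that the cortex libraries were now slightly above the microglia libraries. The log2 difference on that scale was -0.27 (FDR = 0.0889) in A+/Pwt/wt and -0.19 (FDR = 0.142) in A+/Pki/ki mice, neither past the threshold. Plcb2 stood slightly below the markers, at -0.48 (FDR = 0.00862) and -0.40 (FDR = 0.0082). Plcb3 was at -2.44 and -2.67, and Plcg1 at -4.04 and -4.11, on the same scale. Plcg2 and Plcb2 thus followed the microglia markers across the 2 kinds of sample more closely than the other members did. Plcg2 averaged 5.95 ± 0.0752 per 1000 marker counts in male WT, 5.92 ± 0.911 in male KI, 5.97 ± 0.947 in female A-/Pwt/wt, 6.09 ± 0.622 in A+/Pwt/wt and 5.83 ± 0.460 in A+/Pki/ki microglia (SD, n = 3, 4, 7, 4 and 4).

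**Figure D3:**
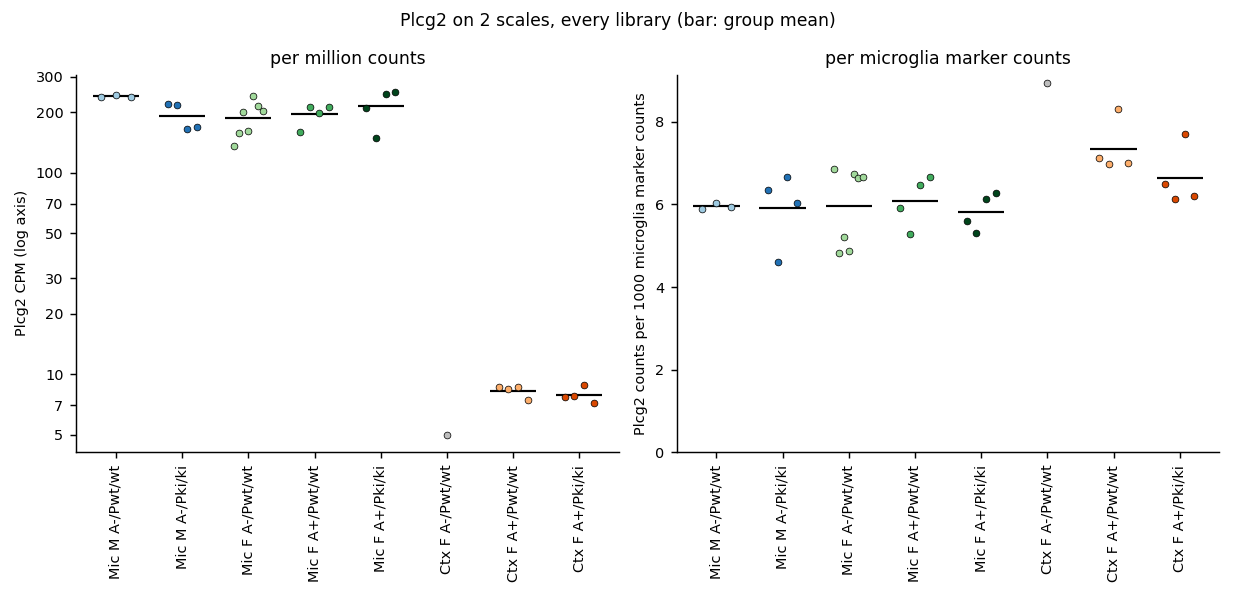
Plcg2 in every library as CPM and per 1000 summed counts of the 15 microglia markers, by group with the group mean as a bar. The microglia groups average 187 to 239.7 CPM against 7.87 to 8.29 CPM in the A+ cortex groups, while on the marker scale they average 5.83 to 6.09 and the A+ cortex groups 6.64 to 7.36.

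The second comparison asked how the members differed with the knock-in in male microglia without the transgene. Of the 10 members 3 passed the test, where 16.4% of 16373 genes did: Plch2 and Plcd4 were higher in KI (11.1% of genes were) and Plcb2 was lower (5.26% were). The edited gene itself did not pass with edgeR, but did with DESeq2 (FDR = 0.0245), which called 3719 of the 16373 genes. Plcg2 had 238, 242 and 239 CPM in the 3 WT and 219, 217, 165 and 168 CPM in the 4 KI libraries, so that every KI library lay below every WT library, with a log2 difference of -0.36 ± 0.11 (FDR = 0.0581). Without the KI library of mouse 104 it passed, at -0.41, in a fit that called 5439 genes against 2685 with every library. Relative to the microglia markers the log2 difference was -0.01 (FDR = 0.976). How many of all genes separated KI from WT libraries without overlap in this comparison was not counted.

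Plcb2 was 172, 190.4 and 197 CPM in WT and 104, 148, 151 and 137 CPM in KI libraries, also without overlap. It fell by 0.50 ± 0.15 on the log2 scale (FDR = 0.0454), but the call was lost in 5 of the 7 fits that left out 1 library (KI mice 139 and 84 and each of the WT mice 94, 101 and 102; highest value -0.35, without mouse 84), and relative to the microglia markers the log2 difference was -0.11 (FDR = 0.797). Plch2 had 2.90, 3.11 and 2.09 CPM in WT and 11.0, 17.2, 16.6 and 20.4 CPM in KI libraries. The KI libraries were all several times higher, and the log2 difference of 2.56 ± 0.26, a 5.89-fold level, passed the test (FDR = 0.00374), in all 7 fits that left out 1 library and relative to the microglia markers (2.95, FDR = 0.0118). Plcd4 rose from 2.99, 2.77 and 3.30 CPM in WT to 7.79, 4.93, 7.28 and 6.94 CPM in KI libraries, again without overlap (log2 difference 1.12 ± 0.22, FDR = 0.0106), and it too passed in all 7 such fits and relative to the markers (1.53, FDR = 0.0267). Its antisense neighbour Zfp142 differed by -0.05 (FDR = 0.878).

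The other members did not pass with edgeR. Plcb1 was 17.3, 15.3 and 10.1 CPM in WT and 26.7, 13.8, 32.9 and 28.0 CPM in KI libraries (log2 difference 0.81 ± 0.29, FDR = 0.0906), Plcb4 differed by 0.63 ± 0.23 (FDR = 0.0943) and Plce1 by 0.68 ± 0.28 (FDR = 0.131). In each of these 3 the KI library of mouse 104 lay within or below the WT range, and each passed without it. That fit called 5439 of all genes, against 2685 with every library. Plcb1 also passed with DESeq2 (FDR = 0.0407), and without the low-count filter Plcb1 (FDR = 0.00397), Plcb4 (FDR = 0.00982) and Plce1 (FDR = 0.0137) did. Plcg1, Plcb3 and Plcd1 differed by -0.14 ± 0.10, -0.11 ± 0.10 and -0.14 ± 0.13 on the log2 scale. Beside these values, all 22 neuron markers were higher in male KI libraries (median log2 difference 2.08), with a summed level of 1062 to 2231 CPM against 349 to 486 CPM in WT, as were all 15 astrocyte markers (1.14) and 8 of 12 oligodendrocyte markers (1.09). Endothelial and mural markers were higher for 3 of 12 and oligodendrocyte precursor markers for 2 of 7, and no border macrophage, neutrophil and monocyte or lymphocyte marker passed. Of the 15 microglia markers 1, Sall1, was lower, with a median of -0.33 over the list and a summed level of 24817 to 47072 CPM against 40093 to 40470 CPM. Counted per 1000 neuron marker counts, Plch2 was 8.26, 6.40 and 6.01 in WT and 10.3, 12.6, 8.59 and 9.14 in KI libraries. The part of these other cells in the differences of Plch2, Plcd4 and Plcb2 was not tested.

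The same comparison in female A+ microglia gave no call for any of the 10 members, where 0% of 17039 genes passed with edgeR. At an unadjusted p below 0.05 there were 575 genes and 0 members, and DESeq2 called 7 genes and 0 members. Plcg2 was 160.0, 211, 198 and 211 CPM in WT and 210.1, 149, 246 and 252 CPM in KI libraries, which overlapped, for a log2 difference of 0.13 ± 0.18 (FDR = 0.857). Plch2 was 21.3, 8.55, 21.9 and 23.2 CPM and 7.66, 22.7, 1.25 and 2.09 CPM, with a log2 difference of -1.15 ± 0.82 (FDR = 0.853). The KI library of mouse 335 had by far the highest Plch2 of its group and the highest neuron marker sum, 3417 CPM against 304 to 874 CPM in the other KI libraries, and without it the Plch2 difference was -2.34, still not past the threshold. No marker of any of 9 cell type lists passed in this comparison, and the medians were -0.83 for neuron markers and 2.47 for neutrophil and monocyte markers, which CD11b beads can also capture. Summed neutrophil and monocyte markers ran from 50.1 to 1634 CPM in KI and from 71.75 to 144 CPM in WT libraries, which overlapped. Over the 10 members the log2 differences ran from -1.15 ± 0.82 for Plch2 to 0.13 ± 0.18 for Plcg2.

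Whether the KI difference itself differed between A- males and A+ females was tested as an interaction. With edgeR it passed for 0% of 17619 genes and for no member, with 4664 genes and 6 members at an unadjusted p below 0.05, and DESeq2 called 1167 genes, among them Plcd4 and Plch2. The log2 difference between the effects was 3.73 ± 1.00 for Plch2 (FDR = 0.143), 1.88 ± 0.58 for Plcd4 (FDR = 0.143) and -0.46 ± 0.23 for Plcg2 (FDR = 0.211). This result turned on the A+/Pki/ki library of mouse 335. Without it 35.4% of 17495 genes passed, and so did 7 members, Plcg2 (-0.69, FDR = 0.0153), Plcb2 (-0.81), Plcb1 (1.80), Plcb4 (1.32), Plcd4 (2.31), Plce1 (1.59) and Plch2 (4.86, FDR = 0.000515). Relative to the microglia markers, with all libraries, the Plcg2 difference was 0.05. Sex, transgene and batch tag cannot be told apart in this contrast.

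**Figure D4:**
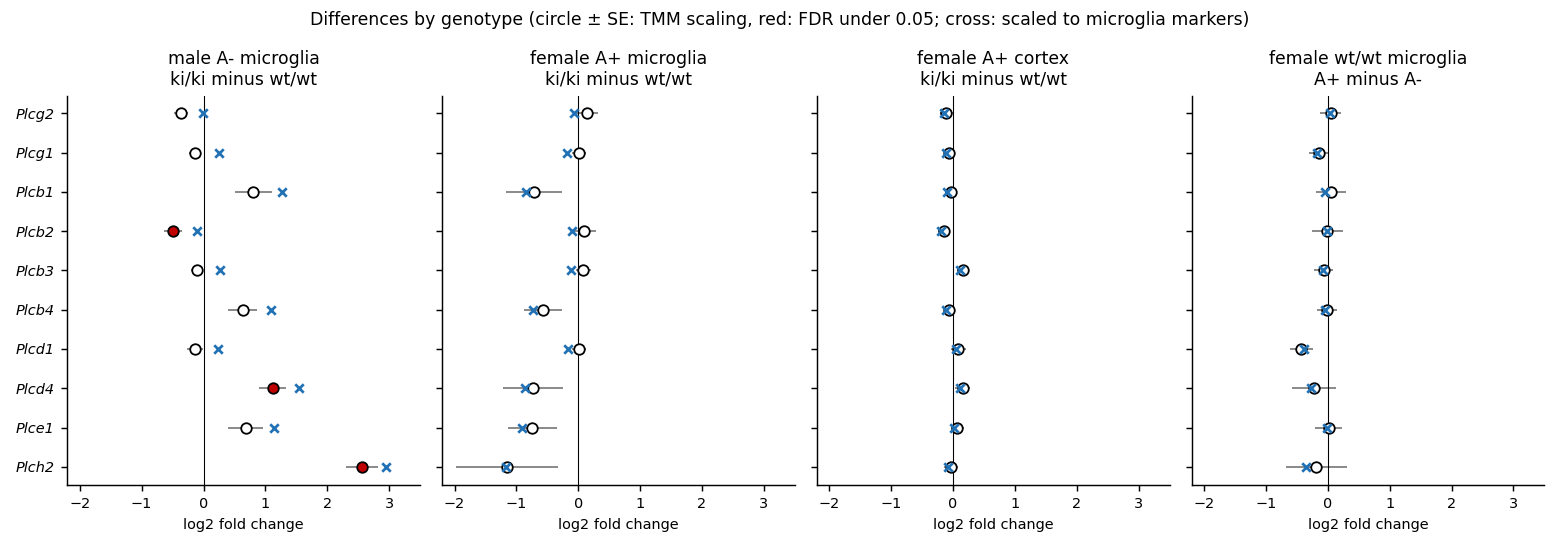
Log2 difference (± SE, horizontal bars) of each member for male KI against WT microglia, A+/Pki/ki against A+/Pwt/wt microglia, A+/Pki/ki against A+/Pwt/wt cortex and female A+/Pwt/wt against A-/Pwt/wt microglia, with red for FDR below 0.05 and crosses for values scaled to the microglia markers. Only the male panel has red points, Plch2 at 2.56, Plcd4 at 1.12 and Plcb2 at -0.50.

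In cortex the knock-in was compared in A+ mice, where 0% of 18640 genes and none of the 10 members passed with edgeR (514 genes and 0 members at an unadjusted p below 0.05, 11 genes and 0 members with DESeq2). Plcg2 was 8.60, 8.42, 8.68 and 7.48 CPM in WT and 7.74, 7.77, 8.81 and 7.15 CPM in KI cortex, a log2 difference of -0.11 ± 0.10 (FDR = 1.00), and the ranges overlapped. Plcb2 was 5.85, 6.36, 5.70 and 6.29 CPM and 5.65, 5.68, 5.68 and 5.32 CPM. For Plcb2 the highest KI library, at 5.685 CPM, lay just below the lowest WT library, at 5.704 CPM. Its log2 difference of -0.15 ± 0.10 was the lowest of the 10 and did not pass (edgeR, unadjusted p = 0.174, FDR = 0.9997). How many of all genes separated in this way was not counted. Plcb1, the leading isoform of cortex, differed by -0.04 ± 0.09, at 218 ± 24.9 CPM in WT and 216 ± 23.5 CPM in KI (SD, n = 4 each). The highest differences were 0.15 ± 0.09 for Plcb3 and 0.15 ± 0.12 for Plcd4. Leaving out the WT library of mouse 236 brought no member past the threshold.

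The APP/PS1 transgene was compared in female Pwt/wt microglia, 4 A+ against 7 A-. Here 1.29% of 17355 genes passed and 0 of the 10 members did, with 1 member, Plcd1, at an unadjusted p below 0.05 and 0 members called by DESeq2. Plcg2 was 160.0, 211, 198 and 211 CPM in A+ and ranged from 135 to 239.9, with a median of 200.5, in A- microglia, so that the groups overlapped over most of their range (log2 difference 0.05 ± 0.17, FDR = 0.992). Plcd1 was 18.3, 15.3, 19.2 and 16.3 CPM in A+ and ranged from 13.9 to 28.7, with a median of 23.4, in A- microglia, and differed by -0.43 ± 0.19 (FDR = 0.454). The log2 differences of the other 8 members lay between -0.22 ± 0.36 for Plcd4 and 0.05 ± 0.25 for Plcb1. Without the A- library of mouse 236 no member passed.

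Among the 7 female A-/Pwt/wt CD11b+ libraries, which share 1 genotype and 1 batch tag, member levels moved with a neuron score, which averages the log2 CPM of 22 neuronal genes and ranged from 3.66 to 6.94. For 10 relations tested by exact two-sided permutation, Plch2 gave Pearson's r of 0.99 (p = 0.000198, adjusted p = 0.00198) and Spearman's rho of 1.00 (p = 0.000397), and r was 0.99 without the 2 libraries farthest from the median score. Plcg2 gave r of -0.93 (exact p = 0.00258, adjusted p = 0.00860) and rho of -0.93, and Plcb2 gave r of -0.94 (exact p = 0.000992, adjusted p = 0.00496) and rho of -0.96. Without the 2 farthest libraries r was -0.78 for Plcg2 (exact p = 0.125) and -0.86 for Plcb2 (exact p = 0.0417). Plcb3 gave r of -0.86 (exact p = 0.0139, adjusted p = 0.0347), rho of -0.89, and -0.62 without those libraries. With 5 libraries left, such a p says little about stability. Without mouse 223 alone, only Plch2 passed the adjusted threshold, while r was -0.86 for Plcg2 (exact p = 0.0333, adjusted p = 0.0722), -0.89 for Plcb2 (exact p = 0.0153, adjusted p = 0.0509) and -0.92 for Plcg1 (exact p = 0.0111, adjusted p = 0.0509). Without mouse 236 r was 1.00 for Plch2, -0.94 for Plcg2, -0.93 for Plcb2 and -0.85 for Plcb3, of which Plcb3 missed the adjusted threshold (exact p = 0.0264, adjusted p = 0.0528). Plcg1 had r of -0.81 (exact p = 0.0262, adjusted p = 0.0524), and the other 5 members had r between -0.66 and 0.75, none past the adjusted threshold. A score of oligodendrocyte markers in place of neuron markers gave similar values: r was 0.99 for Plch2, -0.96 for Plcb2 and -0.93 for Plcg2. The relations are thus not particular to neuronal transcripts. Score and levels are shares of the same library, and the part of that in these relations was not tested.

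**Figure D5:**
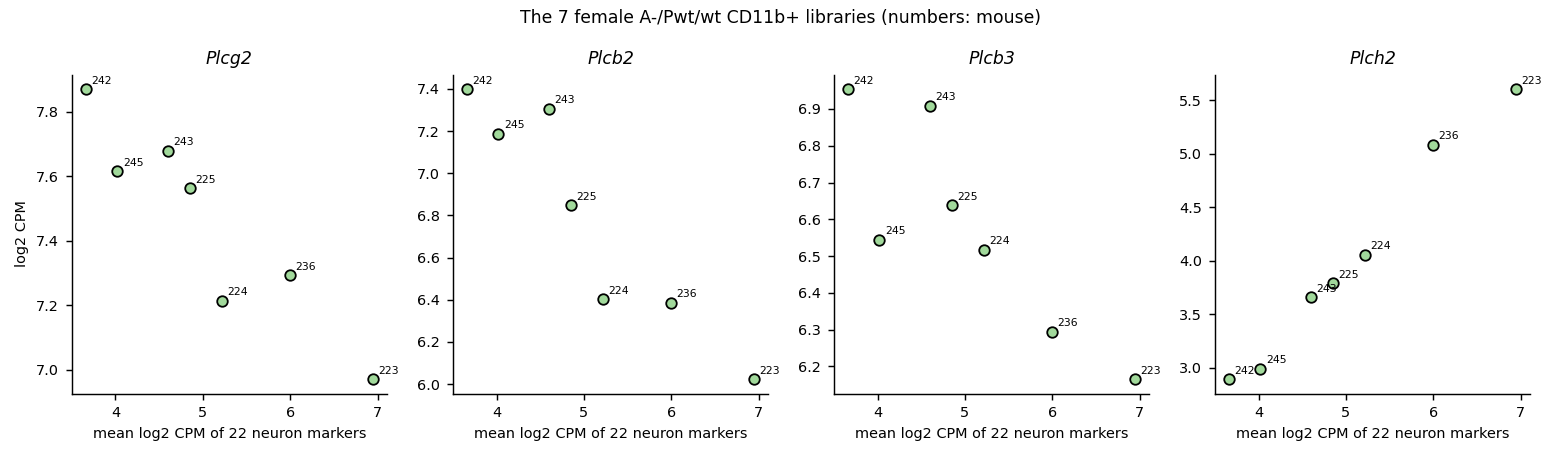
Log2 CPM of Plcg2, Plcb2, Plcb3 and Plch2 against the neuron marker score (mean log2 CPM of 22 genes) in the 7 female A-/Pwt/wt CD11b+ libraries. Each point is 1 library with its mouse number, and Plch2 rises with the score from 7.54 to 52.3 CPM on the linear scale while the other members tend to lower values.

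The wider pathway was followed with 6 lists of 153 genes, counted in the male KI comparison against 11.1% of genes higher and 5.26% lower and a median of all genes of -0.00. Of 34 receptors, kinases, adaptors and phosphatases upstream of PLC gamma, 8 were lower and 1 higher, with a median log2 difference of -0.33. The largest fall was that of Cd33, a sialic acid receptor of microglia, by 0.71, and the 1 rise was that of the kinase Fyn, at 0.84. This list shares Csf1r with the microglia markers, and relative to those markers its median was -0.00. Of 33 tested genes upstream of PLC beta 8 were higher and 1 was lower (median 0.52, and 0.92 relative to the microglia markers). Among them were the Gq-coupled adrenergic receptor Adra1d at 3.36 and the G gamma subunit Gng2, which fell by 0.45. All 22 neuron markers were also higher in this comparison (median 2.08). The part of other cells in the values of the 6 lists was not tested.

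Downstream of the enzymes, 1 of 22 IP3 arm genes was higher and 4 were lower (median 0.09), with the IP3 kinase Itpka, a neuronal enzyme, at 2.16 and the calcineurin-controlled factor Nfatc2 at -0.54. In the DAG arm 4 of 26 were higher and 4 lower (median 0.03), with Rasgrp1 at 2.05 and the protein kinase C isoform Prkcd at -0.56. Of 26 genes that supply PIP2, 2 were higher and none was lower (median -0.09), led by the phosphatase Inpp5j at 1.69. Of 6 other phospholipase C family genes 2 were higher and none was lower (median 0.52), led by Plcxd2 at 1.17. Relative to the microglia markers the medians were 0.47 for the IP3 arm and 0.45 for the DAG arm. They were 0.30 for PIP2 supply and 0.94 for the other family genes on that scale. In female A+ microglia and in A+ cortex no gene of the 6 lists passed the KI comparison, as no gene at all did with edgeR. For the transgene, 1 listed gene passed, where 1.29% of 17355 genes did. It was the G gamma subunit Gng12 (log2 difference 0.81 ± 0.13, FDR = 0.00697), 1 of 34 tested genes upstream of PLC beta, and no gene of the other lists passed. Tyrobp, the adaptor of TREM2, differed by 0.88 (FDR = 0.0739).

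Between microglia and cortex, where 37.7% of all genes were higher and 40.2% lower in A+/Pwt/wt mice, the lists are given by branch, without a test of differences between them. In A+/Pwt/wt mice 29 of 34 PLC gamma input genes were higher in microglia and 3 were lower, with a median log2 difference of 4.43 (Cd33 at 5.18, Vav3 at -1.13), close to the value of Plcg2 itself. Of 35 PLC beta input genes 12 were higher and 21 lower (median -0.93), from the complement receptor C5ar1 at 4.78 to the neurotensin receptor Ntsr1 at -5.48. The IP3 arm had 10 of 22 higher and 11 lower (Itpr3 at 3.82, Itpka at -3.57), the DAG arm 10 of 27 higher and 14 lower (Prkcd at 4.36), PIP2 supply 5 of 26 higher and 18 lower (Pip4k2a at 1.82, Inpp5j at -3.54) and the other family members 2 of 8 higher and 6 lower (Plcl2 at 0.62, Plcz1 at -5.35). The median over all genes was -0.06. In A+/Pki/ki mice the PLC gamma input list had 28 higher and 3 lower (median 4.69).

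As a description, the genes whose log2 CPM followed that of Plcg2 most closely over the 22 CD11b+ libraries, among 11340 genes, were Inpp5d (r = 0.97), which encodes the phosphatase SHIP1, Mlec (0.96), Nmt1 (0.96), Stat6 (0.95) and Pik3ap1 (0.95). After subtracting each group mean, genes among the closest were Fmnl1 (0.98), Laptm5 (0.97), Prkcd (0.96) and Man2b2 (0.96). Of the members, Plcb2 had r of 0.84 with Plcg2 and Plcb3 0.74, whereas Plch2 had -0.83 and Plcb1 -0.71. These libraries share the varying content of other brain cells described above, and no p is given.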

How the data were processed

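Bulk RNA-seq of 22 CD11b+ microglia and 9 cortex libraries was used. Per the labels and methods, the authors checked reads with FastQC 0.11.7, trimmed them with Trimmomatic 0.39, aligned them to GRCm38 with STAR 2.7.9a and counted them per gene without strand with featureCounts (2.12.0), and deposited raw counts in 3 tables. A second set of deposited tables holds variance-stabilized log2 values, used here only as an alternative. Libraries were oligo(dT)-selected and paired-end. Library totals are given in the report.

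Counts were tested with edgeR 4.0.16 (R 4.3.3): a gene was kept when 3 or more fitted libraries held 10 or more counts of it, with TMM, quasi-likelihood F tests, Benjamini-Hochberg FDR of 0.05 over all genes, and SE as the log2 difference over the square root of F. Only the groups compared entered a fit; the interaction used 4 groups. Alternatives were filters, scalings, DESeq2 1.42.0, limma 3.58.1, all groups in 1 fit, leaving out each library and, added after the data were seen, scaling to 15 microglia markers. Replicates are separate mice. Levels per kb divide CPM by merged exon length. Promoters are from RefSeq and the transcript from Gencode. All 10 members are named; of each pathway list the called genes with the largest rise and fall (or the smallest p), of each marker list the 3 highest, and the 5 genes most like Plcg2; some genes that this rule picks are not reported here. Members and lists were chosen with earlier results of these data known. On simulated counts with 200 genes changed 2-fold, edgeR recovered 59% in the male comparison, 17.5% in the female KI, 35% in the transgene and 72% in the cortex comparison, and 2% of the interactions. In these simulations all other genes kept the same mean in every group, and no shift in cell content was included. Recovery in the real data may differ. No paired analysis was possible because the groups compared share fewer than 2 mouse numbers.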

Additional observations from a re-analysis of the deposited data

Results flagged for a closer look

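In 3 of 60 groups of 4 to 7 libraries 1 library lay apart from the rest of its group for a member (Dixon's test), and chance alone would mark about 1 in 20 groups. Plcb1 in female A-/Pwt/wt microglia was 40.9 CPM in mouse 223, where the next library had 21.2 CPM and the lowest 16.6 CPM. Mouse 223 also had the highest neuron marker score of its group, 6.94. Plcb2 in A+/Pki/ki cortex was 5.32 CPM in mouse 222, where the other libraries had 5.65 to 5.68 CPM. Plch2 in A+/Pwt/wt microglia was 8.55 CPM in mouse 367, where the other libraries had 21.3 to 23.2 CPM. Mouse 367 had the lowest neuron marker sum of that group, 1404 CPM. The part of other cells in these values was not tested.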

How the results depend on the processing

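Of 1180 values for single members, listed genes and relations under another setting, 1078 kept their direction and their side of the threshold. In the male comparison 3 members passed, where edgeR called 2685 of 16373 genes. Without the low-count filter 6 members did (adding Plcb1, Plcb4 and Plce1), and the count of all genes in that fit is not reported here. With DESeq2, which called 3719 of 16373 genes, 5 members did (adding Plcg2 and Plcb1). When 1 library was left out 2 to 7 members did, beside 894 to 5439 of all genes. Both highest counts came without the KI library of mouse 104. In the interaction 0 passed, against 2 with DESeq2 and 0 to 7 with 1 library left out. For the neuron score 4 members passed, and 1 to 5 did with 1 library left out. Without TMM, Plcg1 (adjusted permutation p = 0.0127) and Plcd1 (adjusted permutation p = 0.0188) passed as well. With oligodendrocyte markers in place of neuron markers, Plcg1 passed as well (adjusted permutation p = 0.0278). Scaling to the microglia markers, chosen after the data were seen, turned the sign of members and listed pathway genes as follows. In male microglia Plcg1 became 0.26, Plcb3 0.26 and Plcd1 0.23, in A+ KI microglia Plcg2 became -0.0641, Plcg1 -0.18, Plcb2 -0.10, Plcb3 -0.11 and Plcd1 -0.17, for the transgene Plcb1 became -0.0412 and Plce1 -0.00839, and in the interaction Plcg2 became 0.0549, Plcg1 0.44, Plcb3 0.38 and Plcd1 0.40. In A+/Pwt/wt microglia against cortex Plcg2 became -0.27, Plcg1 -4.04, Plcb2 -0.48, Plcb3 -2.44, Plcd1 -4.15, Plce1 -4.29, Plcl2 -4.30, C5ar1 -0.0679, Itpr3 -1.07, Prkcd -0.57 and Pip4k2a -3.08. In A+/Pki/ki mice Plcg2 became -0.19, Plcg1 -4.11, Plcb2 -0.40, Plcb3 -2.67, Plcd1 -4.36, Plcl2 -4.25, Itpr3 -1.11, Prkcd -0.43 and Pip4k2a -3.15. By its construction this scale divides every gene by markers that are far higher in microglia. Leaving out 1 library turned the sign of members near 0 in the A+ KI, transgene and cortex comparisons, among them Plcg2 (-0.0345 to 0.13) and Plcb1 (-0.16 to 0.24) for the transgene, and that of Plce1 (-0.45 to 0.00398) between A+/Pki/ki microglia and cortex. For the number of all genes called, the male count of 2685 became 1613 relative to the markers and 894 to 5439 with 1 library left out; the transgene count of 224 became 636 with DESeq2, 148 relative to the markers and 91 to 497 with 1 left out; the cortex count of 0 became 40 without the filter, 11 with DESeq2 and 3 relative to the markers; and the interaction count of 0 became 1167 with DESeq2 and up to 6199 without 1 library. The male table holds only its 2 groups, so a fit of all its groups gave no separate value. Groups of 3 or 4 libraries and low counts (24 at the least, for Plch2) limit the precision.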

Other observations

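Relative to the microglia markers, a scale chosen after the data were seen, Plcg2 showed a gap among the 7 female A-/Pwt/wt CD11b+ libraries. The gap was noticed in the values and was not tested. The markers themselves made up 1.44% to 3.90% of counts in this group. Mice 224, 225 and 236 had 4.82, 5.20 and 4.88 Plcg2 counts per 1000 marker counts, and mice 223, 242, 243 and 245 had 6.85, 6.73, 6.63 and 6.67. No label separates these mice, and the library of mouse 236 is the one whose number also appears on an A+ cortex library. Per 1000 neuron marker counts, Plch2 was 7.36 to 11.99 in this group and 3.40 to 4.04 in A+/Pwt/wt cortex, without overlap. The CD11b+ cells came from whole brain and the cortex from 1 region, and these cannot be told apart.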
